A study of Mus musculus with 130 samples.

Results

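The CDK inhibitors of the CIP/KIP and INK4 families are 7 genes, chosen by symbol from the 52550 genes of the deposited count table. The CIP/KIP family has 3 of them (Cdkn1a, Cdkn1b and Cdkn1c) and the INK4 family 4 (Cdkn2a, Cdkn2b, Cdkn2c and Cdkn2d). All 7 were in the table, and 6 passed the filter on low counts and were tested. Cdkn2a did not pass and is described by its counts.

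CDK inhibitors are proteins that restrain the cyclin-dependent kinases which drive the cell cycle. CIP/KIP proteins bind cyclin-CDK complexes of G1 and S phase, while INK4 proteins bind CDK4 and CDK6 and keep D-type cyclins from activating them, so that the retinoblastoma protein stays able to hold back E2F factors. In mouse embryos several of these genes are known to be expressed as cells leave the cycle, among them Cdkn1c in cartilage and muscle and Cdkn1b and Cdkn2d in neurons. Much of the control of CIP/KIP proteins is through their degradation, which RNA levels do not show.

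The data are RNA sequencing of cells from whole mouse embryos of strain FVB/NJ with the FUCCI reporter, in which fluorescent fragments of Cdt1 and geminin report the phase of the cycle. All embryos were wild type apart from the reporter. Minced embryos were flow-sorted into a BR gate, which the labels call G0, a DR gate for G1, a YE gate for G1-S and a GR gate for S-G2-M, and an unsorted fraction was kept. Each of these 5 fractions had 5 libraries, 1 from each preparation: 2 at E10.5 (WT1, WT2), 1 at E11.5 (WT3) and 2 at E13.5 (named 5 and 8). Whether a preparation pooled embryos is not stated, nor which promoter drives the reporter. Each gate of a whole embryo holds cells of many types, and in such bulk samples fewer cells of a type and less RNA per cell cannot be told apart.

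The 25 libraries held 14692256 to 58492064 counts. The share of counts from the mitochondrial genome was 1.66% to 3.42% in preparations 5 and 8 and 0.372% to 0.701% in the WT-titled ones, so that embryonic day and any difference in how these preparations were made cannot be told apart. A list of 10 replication and mitosis genes checked the gates: all 10 were higher in S-G2-M than in G0, with log2 changes between 1.19 for Mcm2 and 6.16 for Ccnb1, and all 10 were also higher in G1 than in G0. RNA of neuronal genes also differed between the gates. The 15 neuronal genes (Tubb3, Stmn2, Dcx and others) were all lower in S-G2-M than in G0, and none was at 0 in any library. Their summed level was 262 to 628 CPM (counts scaled to a common library total) in S-G2-M and 5657 to 10067 CPM in G0. Their part in the results for the CDK inhibitors was not tested.

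Levels of different genes were compared per kilobase of exon. Cdkn1c, which encodes p57, made up 56.1% to 95.7% of the summed CPM per kilobase of the 7 genes in each library (median 84.9%). Cdkn1b, which encodes p27, came next with a median of 8.33%, followed by Cdkn2d (p19INK4d) with 4.24% and Cdkn2c (p18INK4c) with 1.62%. Cdkn1a (p21) had a median of 0.598% and Cdkn2b (p15INK4b) of 0.241%. The smallest share was that of Cdkn2a, with a median of 0.0074%. In S-G2-M cells the share of Cdkn1c had its lowest median, 59.7%, and that of Cdkn1b its highest, 24.4%.

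**Figure D1:**
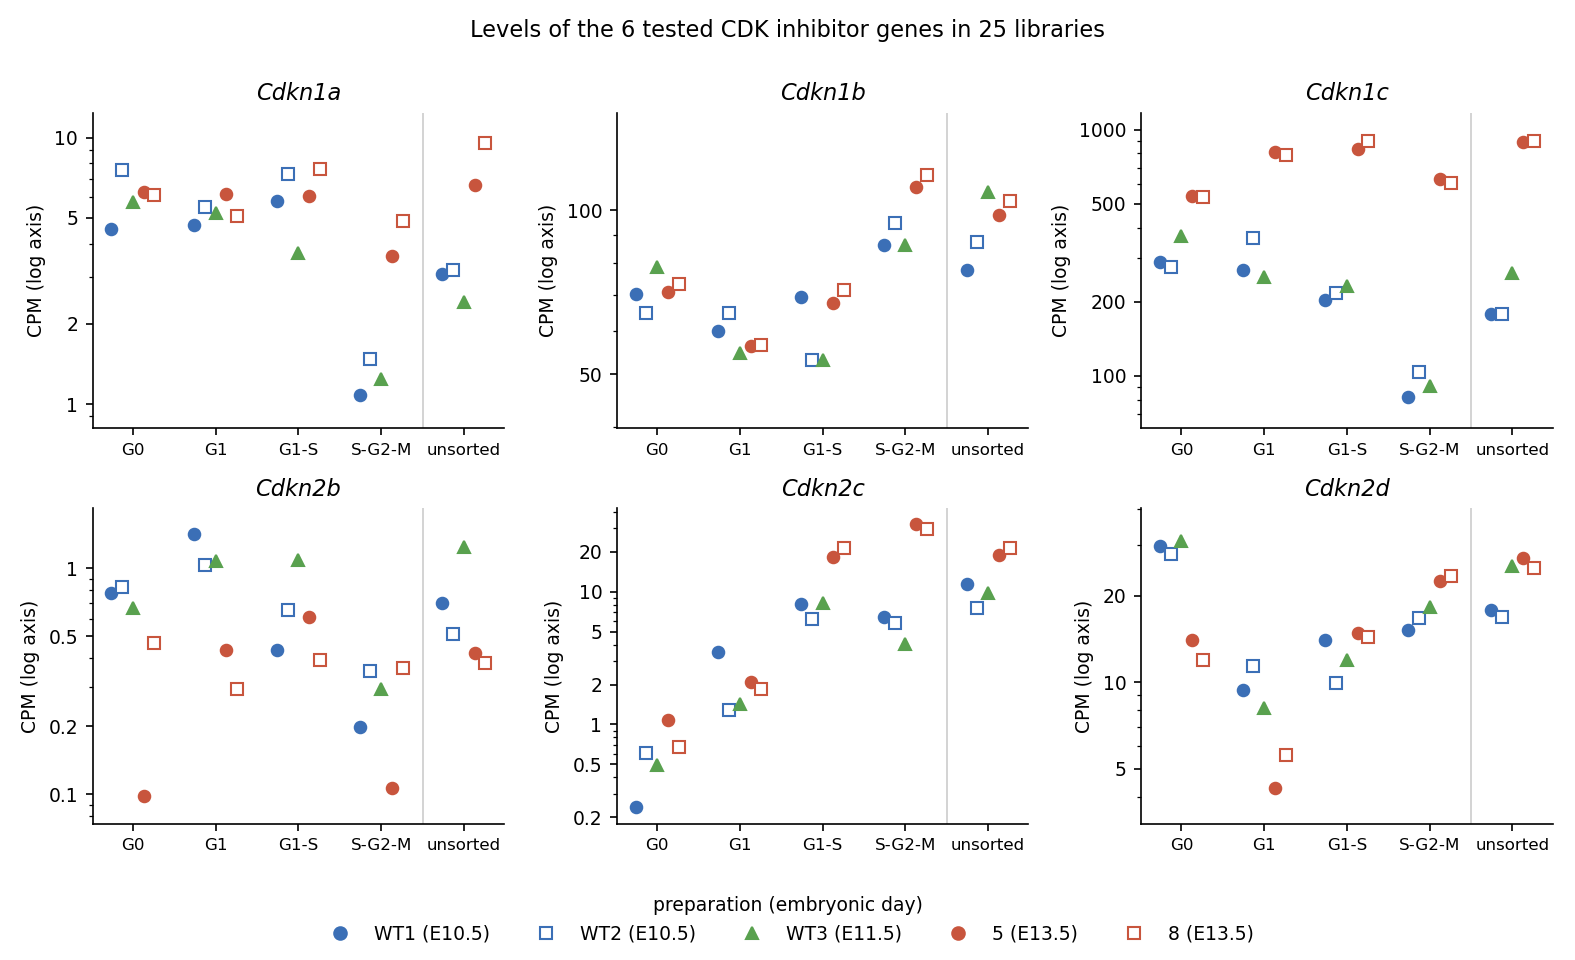
Level of each tested CDK inhibitor gene (CPM, log axis) in the 4 sorted gates and in unsorted cells. Each point is 1 library, and colour and shape give the preparation and its embryonic day. In S-G2-M cells Cdkn1c stood at 608 and 631 CPM in the E13.5 preparations and at 81.8 to 104 CPM in the others.

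The comparison of successive gates asks how each gene differs from one phase of the cycle to the next. Of the 6 tested genes, 3 were called in G1 against G0 (36.3% of all 23506 genes tested were called there), 2 in G1-S against G1 (18.9% of all genes) and 4 in S-G2-M against G1-S (17.4% of all genes). Across the wider steps, 2 were called in G1-S against G0 (52.6% of all genes), 5 in S-G2-M against G0 (54.2%) and all 6 in S-G2-M against G1 (29.5%). The median log2 change of the 6 genes in S-G2-M against G0 was -0.60, beside -0.01 over all genes tested. They did not move as a block: in S-G2-M against G1, Cdkn1b, Cdkn2c and Cdkn2d were higher and Cdkn1a, Cdkn1c and Cdkn2b were lower. Calls used edgeR's quasi-likelihood test with Benjamini-Hochberg adjustment over all genes and a threshold of 0.05, and errors are SE.

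**Figure D2:**
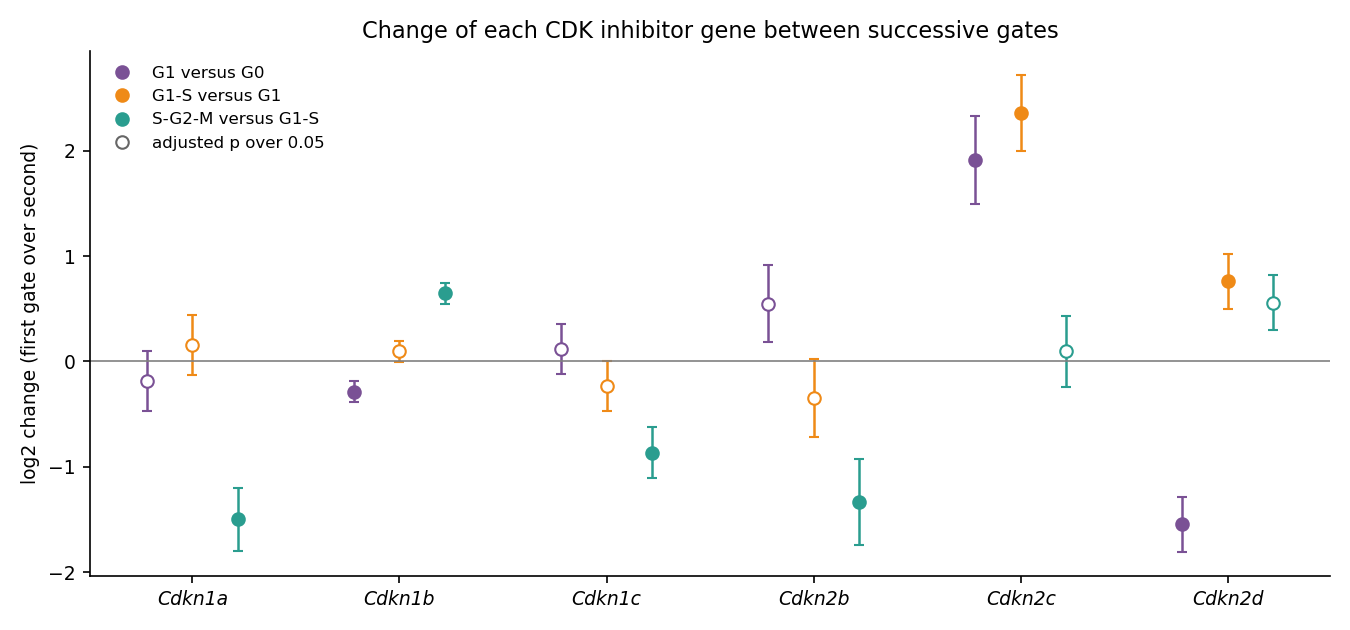
Log2 change of each gene between successive gates (first named gate over second), from 1 model of all 25 libraries, with SE bars. Filled points passed an adjusted p of 0.05 and open points did not. Cdkn2c was the gene with the largest increases, 1.91 in G1 against G0 and 2.36 in G1-S against G1.

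Cdkn1a, on chromosome 17 (chr17:29090976-29100727, plus strand, GRCm38), encodes p21, the inhibitor that p53 induces after DNA damage. Its levels overlapped between the first 3 gates, and it was lowest in S-G2-M in each of the 5 preparations. In the order WT1, WT2, WT3, 5 and 8 it had 4.52, 7.59, 5.72, 6.27 and 6.08 CPM in G0 cells and 4.69, 5.495, 5.20, 6.14 and 5.08 CPM in G1 cells. In G1-S cells it had 5.77, 7.32, 3.68, 6.03 and 7.61 CPM, and in S-G2-M cells 1.08, 1.48, 1.24, 3.59 and 4.86 CPM. The S-G2-M library of preparation 8 overlapped the other gates, and the other 4 S-G2-M libraries lay below every library of the other gates. Cdkn1a fell by 1.53 ± 0.30 in S-G2-M against G0 (log2, adjusted p = 0.00014) and by 1.499 ± 0.30 in S-G2-M against G1-S (adjusted p = 0.0016). It fell by 1.34 ± 0.30 in S-G2-M against G1 (adjusted p = 0.0015), with -0.46 (adjusted p = 0.13) in preparations 5 and 8 alone. In G1 against G0 the log2 change of -0.18 did not pass the test (95% interval -0.75 to 0.38). A gene annotated on the opposite strand, AC167363.2, covers 7.68% of the exon length of Cdkn1a, and whether reads were counted by strand is not given in the sources used here.

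Cdkn1b (chr6:134920401-134925513, plus strand) encodes p27, which binds CDK2 complexes in resting cells and is degraded as cells enter S phase. Its RNA was highest in S-G2-M among the 4 gates in each of the 5 preparations. The level was 70.3, 64.8, 78.6, 70.9 and 73.2 CPM in G0 cells (WT1, WT2, WT3, 5 and 8) and 60.1, 64.9, 54.7, 56.4 and 56.5 CPM in G1 cells. It was 69.3, 53.2, 53.2, 67.5 and 71.3 CPM in G1-S cells and 86.4, 94.6, 86.2, 110 and 116 CPM in S-G2-M cells. The S-G2-M libraries did not overlap those of any other gate. Cdkn1b rose by 0.46 ± 0.10 in S-G2-M against G0 (log2, adjusted p = 0.00051), by 0.74 ± 0.10 against G1 (adjusted p = 6.6e-06) and by 0.65 ± 0.10 against G1-S (adjusted p = 0.00017). In G1 against G0 it fell by 0.29 ± 0.10 (adjusted p = 0.03) and was lower in 4 of 5 preparations, a call that was lost without WT3, 5 or 8 (adjusted p = 0.083 to 0.16), without the filter on low counts (adjusted p = 0.18) and in the WT-titled preparations alone (adjusted p = 0.27). In the WT-titled preparations alone the S-G2-M against G0 change was 0.34 with an adjusted p of 0.067.

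Cdkn1c (chr7:143458339-143461050, minus strand) is an imprinted gene, expressed from the maternal allele, that encodes p57, and it was the most abundant of the 7 per kilobase. Its pattern over the gates was not the same at the embryonic days. In preparations 5 and 8 it had 535 and 531 CPM in G0 cells, 807 and 791 CPM in G1 cells, 830 and 900 CPM in G1-S cells and 631 and 608 CPM in S-G2-M cells. In WT1, WT2 and WT3 it had 289, 277 and 369 CPM in G0 cells, 268, 363 and 252 CPM in G1 cells, 204, 217 and 231 CPM in G1-S cells and 81.8, 104 and 91.0 CPM in S-G2-M cells. G0 was its lowest gate in preparations 5 and 8, and S-G2-M its lowest in the 3 WT-titled ones, with no overlap between S-G2-M and any other gate there.

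Over all days Cdkn1c fell by 0.98 ± 0.24 in S-G2-M against G0 (log2, adjusted p = 0.0016), by 1.10 ± 0.24 against G1 (adjusted p = 0.0014) and by 0.87 ± 0.24 against G1-S (adjusted p = 0.015). The direction of the first of these turned with the day: it was 0.17 (adjusted p = 0.08) in preparations 5 and 8 alone. In S-G2-M against G1-S it was lower in all 5 preparations, and the call was lost without WT1, WT2 or WT3 (adjusted p = 0.07, 0.068 and 0.06). In G1-S against G0 it was not called over all days (-0.12 ± 0.24), with 0.64 (adjusted p = 3.4e-06) in preparations 5 and 8 and -0.50 (adjusted p = 0.032) in the WT-titled ones. In G1 against G0 it was not called over all days either (0.12 ± 0.24), with 0.57 (adjusted p = 1.9e-05) in preparations 5 and 8. Among the WT-titled preparations it was higher in G1 than in G0 in WT2 and lower in WT1 and WT3. An antisense gene, Gm44732, covers 30.7% of the exon length of Cdkn1c. It had 0 to 45 counts per sorted library, where Cdkn1c had 2869 to 18225. Counting by strand is not stated for this gene either, and the part of the overlap in the Cdkn1c counts was not tested.

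Cdkn2a (chr4:89274471-89294653, minus strand) encodes p16INK4a and, from another first exon, p19ARF, and its single table entry cannot tell them apart. Polycomb complexes are known to keep this locus silent in young tissues. It had 20 counts in all 25 libraries together, 0 in 12 of them and at most 7 in any, which was the G1-S library of WT1. The limit that a count of 0 allows was 0.0547 to 0.217 CPM over the libraries, counting error only. Without the filter on low counts it was called in no comparison with edgeR or DESeq2, and its unadjusted p was under 0.05 only in G1-S against G1 with edgeR (log2 change 2.999 ± 1.49, p = 0.044, adjusted p = 0.23).

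Cdkn2b (chr4:89306299-89311039, minus strand), the neighbour of Cdkn2a, encodes p15INK4b, which TGF-beta signalling induces. It was counted at 2 to 40 reads per library. Its level was 0.782, 0.829, 0.671, 0.0988 and 0.468 CPM in G0 cells (WT1, WT2, WT3, 5 and 8) and 1.42, 1.04, 1.07, 0.435 and 0.293 CPM in G1 cells. It was 0.434, 0.654, 1.08, 0.609 and 0.395 CPM in G1-S cells and 0.200, 0.353, 0.292, 0.107 and 0.362 CPM in S-G2-M cells. The S-G2-M libraries lay below those of G1-S without overlap and overlapped those of G0 and G1. Cdkn2b fell by 1.68 ± 0.39 in S-G2-M against G1 (log2, adjusted p = 0.0022), a call kept under every alternative in which it passed the filter on low counts, which it did not in preparations 5 and 8 alone. It fell by 1.33 ± 0.41 against G1-S (adjusted p = 0.025) and by 1.13 ± 0.40 against G0 (adjusted p = 0.021), but the first of these was lost without WT1, WT2, WT3 or 5 (adjusted p = 0.054 to 0.14) and in the WT-titled preparations alone (adjusted p = 0.071), and the second without WT1, WT2 or WT3 (adjusted p = 0.072 to 0.1) and without the filter on low counts (adjusted p = 0.053).

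Cdkn2c (chr4:109660876-109667189, minus strand) encodes p18INK4c, an inhibitor of CDK4 and CDK6 whose promoter is known to respond to E2F factors. It had the largest differences between gates of the 6 tested genes and was lowest in G0 in each of the 5 preparations. In G0 cells it had 0.238, 0.611, 0.492, 1.09 and 0.676 CPM (WT1, WT2, WT3, 5 and 8), from 7 to 22 counts, and in G1 cells 3.51, 1.296, 1.43, 2.08 and 1.86 CPM. In G1-S cells it had 8.06, 6.25, 8.20, 18.2 and 21.5 CPM, and in S-G2-M cells 6.41, 5.87, 4.05, 32.7 and 29.5 CPM. The G1 libraries did not overlap those of G0, and the G1-S libraries did not overlap those of G1. Cdkn2c rose by 1.91 ± 0.42 in G1 against G0 (log2, 3.75-fold, adjusted p = 0.00087) and by 2.36 ± 0.36 in G1-S against G1 (5.13-fold, adjusted p = 4.8e-05), each in 5 of 5 preparations. In S-G2-M against G0 it was 20.6-fold higher (log2 4.37 ± 0.42, adjusted p = 4.7e-09). In S-G2-M against G1-S it did not pass the test over all days (log2 0.10, 95% interval -0.56 to 0.75). It was higher in preparations 5 and 8 and lower in the 3 WT-titled ones, and a fit of preparations 5 and 8 alone gave 0.66 (adjusted p = 0.0016), where the joint fit gave 0.65 within E13.5 (adjusted p = 0.3).

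The sequences before the starts of Cdkn2c and Cdkn2d are shown because these INK4 genes had opposite patterns in the early gates. They are the 250 bases before each start that RefSeq gives on GRCm38.p6, and capitals mark an E2F core motif (the letters TTCGCGC, or with other middle letters TTGGCGC, then as another form TTCCCGC, and as the last form TTGCCGC, searched on both strands).
Cdkn2c first start, chr4:109666757-109667006, minus strand: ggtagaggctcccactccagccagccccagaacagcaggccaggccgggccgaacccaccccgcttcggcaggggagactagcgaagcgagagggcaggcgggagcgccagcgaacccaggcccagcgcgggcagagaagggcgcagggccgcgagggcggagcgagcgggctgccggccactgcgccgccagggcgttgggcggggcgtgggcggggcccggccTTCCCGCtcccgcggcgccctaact
Cdkn2c second start, chr4:109665373-109665622, minus strand: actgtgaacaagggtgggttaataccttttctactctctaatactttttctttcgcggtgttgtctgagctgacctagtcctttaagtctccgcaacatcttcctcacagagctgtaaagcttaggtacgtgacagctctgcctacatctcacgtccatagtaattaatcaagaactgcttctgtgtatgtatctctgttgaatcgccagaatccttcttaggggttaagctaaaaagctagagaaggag
Cdkn2d start, chr9:21291210-21291459, minus strand: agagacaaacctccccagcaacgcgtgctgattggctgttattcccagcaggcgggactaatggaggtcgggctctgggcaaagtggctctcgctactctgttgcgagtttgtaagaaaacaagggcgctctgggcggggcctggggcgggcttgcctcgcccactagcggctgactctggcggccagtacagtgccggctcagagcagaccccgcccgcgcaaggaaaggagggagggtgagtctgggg
The first window of Cdkn2c held TTCCCGC on its own strand, beginning 25 bases before the start, and neither its second window nor that of Cdkn2d held any of the 4 motifs. Of 32851 such windows of the mouse genome, 3.82% held TTCCCGC and 7.89% held any of the 4. Among the other CDK inhibitors, one of the windows of Cdkn2a held TTCCCGC 98 bases before its start, and the windows of Cdkn1a, Cdkn1b and Cdkn2b held none. The gene counts do not tell transcripts of the 2 starts of Cdkn2c apart, and a match describes letters, not binding. The gene coordinates given here are those of GENCODE, whose starts of Cdkn2c and Cdkn2d lie further upstream than those of RefSeq. By them both Cdkn2c windows lie inside the gene, and the Cdkn2d window lies partly inside its own.

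Cdkn2d (chr9:21288410-21291407, minus strand) encodes p19INK4d, which in the mouse is known to help keep neurons out of the cycle. In preparations 5 and 8 it was highest in S-G2-M, with 13.98 and 11.95 CPM in G0 cells, 4.30 and 5.57 CPM in G1 cells, 14.8 and 14.3 CPM in G1-S cells and 22.4 and 23.4 CPM in S-G2-M cells. In WT1, WT2 and WT3 it was highest in G0, with 29.7, 27.8 and 30.9 CPM in G0 cells, 9.37, 11.4 and 8.17 CPM in G1 cells, 14.1, 9.90 and 11.9 CPM in G1-S cells and 15.2, 16.7 and 18.2 CPM in S-G2-M cells. G1 was its lowest gate in 4 of 5 preparations. Cdkn2d fell by 1.54 ± 0.26 in G1 against G0 (log2, adjusted p = 5.9e-05), in 5 of 5 preparations and without overlap, and all 15 neuronal genes were lower in the same comparison. Their summed level was 887 to 2287 CPM in G1 and 5657 to 10067 CPM in G0. It was lower still in S-G2-M cells, where Cdkn2d was higher than in G1. The part of the neuronal genes in the results for Cdkn2d was not tested.

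In S-G2-M against G1 Cdkn2d rose by 1.32 ± 0.26 (log2, adjusted p = 0.00054), again in 5 of 5 preparations without overlap. Its rise of 0.76 ± 0.26 in G1-S against G1 (adjusted p = 0.045) held in 4 of 5 preparations and was lost with the preparation as a block (0.76, adjusted p = 0.057), with RLE factors (adjusted p = 0.058), without Gm26917 and Gm42418 (adjusted p = 0.051), in the WT-titled preparations alone (0.30, adjusted p = 0.38) and without WT1, WT3, 5 or 8 (adjusted p = 0.085 to 0.23). In G1-S against G0 it fell by 0.78 ± 0.26 (adjusted p = 0.014), but it stood at 0.11 (adjusted p = 0.49) in preparations 5 and 8 and lost the call without WT1, WT2 or WT3 (adjusted p = 0.067 to 0.086). In S-G2-M against G0 it was not called over all days (-0.22 ± 0.26, adjusted p = 0.49), with 0.77 (adjusted p = 8.2e-05) in preparations 5 and 8 and -0.80 (adjusted p = 0.0025) in the WT-titled ones.

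Set against each other per kilobase, Cdkn2c and Cdkn2d were far apart in G0 and closest in G1-S and S-G2-M of E13.5. The ratio of Cdkn2c to Cdkn2d was 0.0331 to 0.0456 in G0 cells of preparations 5 and 8 and 0.0047 to 0.0129 in those of the WT-titled ones. In G1 cells it was 0.195 to 0.283 in preparations 5 and 8 and 0.0669 to 0.219 in the WT-titled ones, which overlapped. In G1-S cells it was 0.719 to 0.881 in preparations 5 and 8 and 0.336 to 0.403 in the WT-titled ones. In S-G2-M cells it was 0.738 to 0.855 in preparations 5 and 8 and 0.1302 to 0.248 in the WT-titled ones, again without overlap. The level of Cdkn2d per kilobase was the higher one in all 25 libraries.

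**Figure D3:**
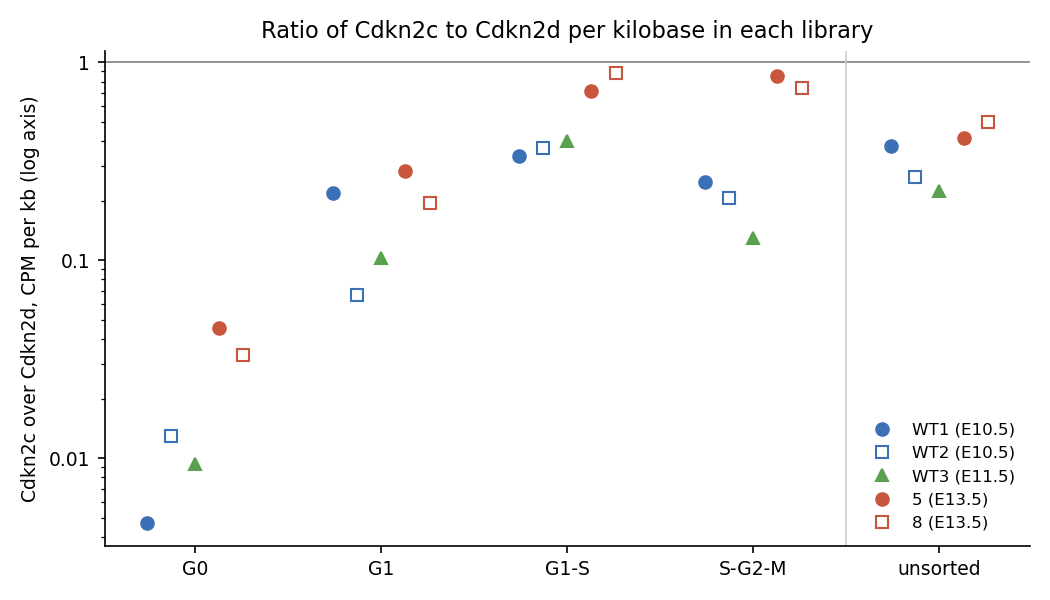
Ratio of Cdkn2c to Cdkn2d in each library, both in CPM per kilobase of exon (log axis), by gate, with the line at 1 marking equal levels. Each point is 1 library. The G0 libraries lie at 0.0047 to 0.0456 and no library reaches 1.

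Whether the gate differences depend on the embryonic day was tested with a mean for each gate and day, comparing E13.5 with E10.5 (2 preparations each; E11.5 had 1 and was not compared). In S-G2-M against G0 the day difference was called for Cdkn1a, Cdkn1c and Cdkn2d, 3 of 6 genes, where 8.66% of all genes were called. In G1-S against G1 it was called for Cdkn1c and Cdkn2d, 2 of 6 genes, where 5.31% of all genes were called. None was called in G1 against G0 (3.51% of all genes) or in S-G2-M against G1-S (1.02%). At an unadjusted p under 0.05 there was 1 in the first, Cdkn1c, and 2 in the second, Cdkn1a and Cdkn1c, and DESeq2 called 0 and 2. All 5 differences were positive, meaning that the gate change was higher at E13.5 than at E10.5.

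Cdkn1c had the largest of the 5. Within E13.5, S-G2-M against G0 gave a log2 change of 0.22 ± 0.13 (adjusted p = 0.22, but 0.014 without WT1 or WT2), and within E10.5 it fell by 1.61 ± 0.14 (adjusted p = 3.1e-08), a difference of 1.83 ± 0.19 (adjusted p = 9.9e-06). Cdkn1a was at -0.56 ± 0.29 within E13.5 (adjusted p = 0.15) and fell by 2.22 ± 0.30 within E10.5 (adjusted p = 7.1e-06), a difference of 1.67 ± 0.41 (adjusted p = 0.016). Cdkn2d rose by 0.82 ± 0.17 within E13.5 (adjusted p = 0.0011; 0.19 without preparation 8) and fell by 0.85 ± 0.17 within E10.5 (adjusted p = 0.00041), with a difference of 1.67 ± 0.24 (adjusted p = 0.00025). Counting each day on its own, 3 of 6 genes rose at E13.5 (Cdkn1b, Cdkn2c and Cdkn2d), where 19.1% of all genes rose. Without preparation 8 only Cdkn2c kept its call there (Cdkn1b had an adjusted p of 0.11), and without 5 Cdkn1b lost its call (adjusted p = 0.06). At E10.5 all 6 were called (52.3% of all genes in either direction). Of these calls within E10.5, that of Cdkn1b was lost without preparation 5 or 8 (0.40 and 0.42). That of Cdkn2b was lost without WT1 (-1.23) and with DESeq2 (-1.61, adjusted p = 0.056). For the difference between the days, the call for Cdkn1a was lost without preparation 5 or 8 (1.93 and 1.39). The day difference of Cdkn2d lost its call without 8 (1.505). Each fit without preparation 5 or 8 leaves 1 library of E13.5 a gate, and each without WT1 or WT2 leaves 1 of E10.5.

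Cdkn2d and Cdkn1c also differed between days in G1-S against G1. For Cdkn2d the log2 change was 1.56 ± 0.19 within E13.5 (adjusted p = 9.9e-06) and 0.19 ± 0.17 within E10.5 (adjusted p = 0.52), a difference of 1.37 ± 0.25 (adjusted p = 0.0041). For Cdkn1c it was 0.11 ± 0.13 within E13.5 (adjusted p = 0.6) and -0.59 ± 0.13 within E10.5 (adjusted p = 0.0068), a difference of 0.70 ± 0.19 (adjusted p = 0.037). That of Cdkn1c was lost when Gm26917 and Gm42418, a pair of abundant genes, were left out of the table (0.64, adjusted p = 0.069). Both differences lost their calls without preparation 5 or 8 (adjusted p = 0.19 to 0.72), as did the fall of Cdkn1c within E10.5 (adjusted p = 0.1 and 0.096). With the preparation as a block 8 of the 24 day differences were called, the added ones being Cdkn2c in G1-S against G1 (1.67, adjusted p = 0.017) and Cdkn1a and Cdkn1c in S-G2-M against G1-S (1.65 and 0.71, adjusted p = 0.012 and 0.019).

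**Figure D4:**
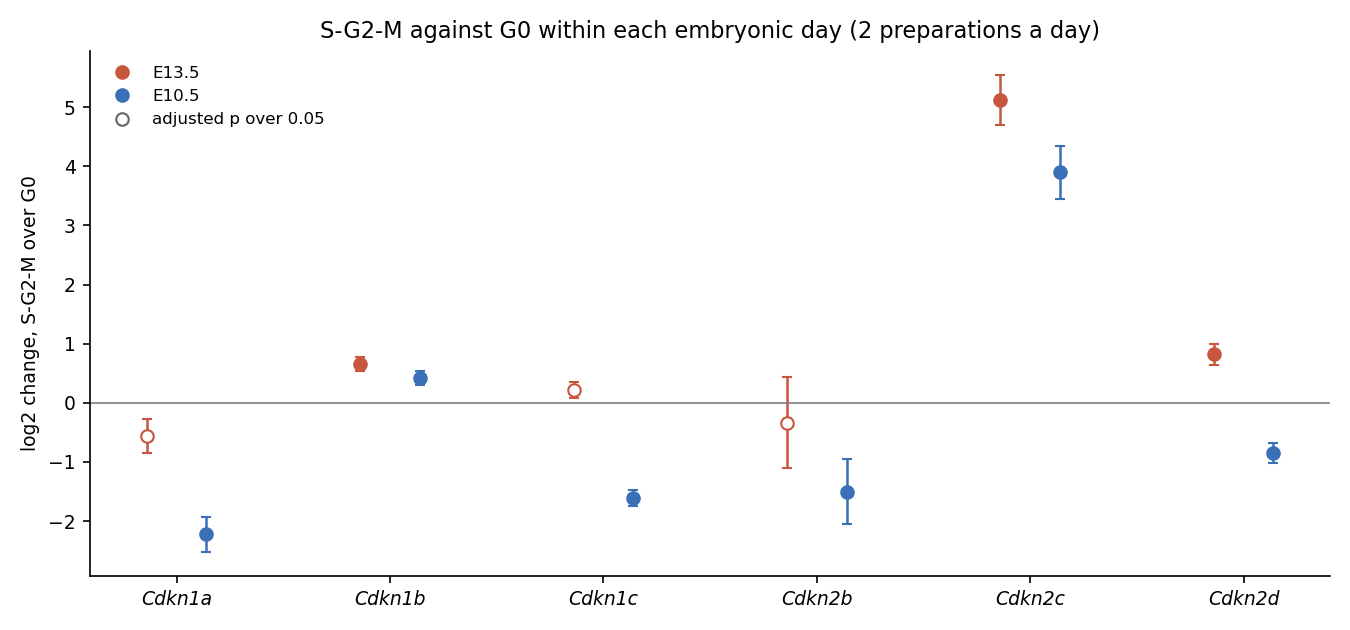
Log2 change of each gene in S-G2-M over G0 within E13.5 and within E10.5 (2 preparations a day), with SE bars. Filled points passed an adjusted p of 0.05. Cdkn2d lies at 0.82 at E13.5 and at -0.85 at E10.5, and Cdkn1c at 0.22 and -1.61.

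The same days were compared within each gate. In S-G2-M cells 5 of 6 genes were higher at E13.5 than at E10.5 (43.0% of all genes were called in either direction). Cdkn1c rose by 2.74 ± 0.14 (log2, adjusted p = 4.4e-10), Cdkn2c by 2.34 ± 0.34 (adjusted p = 4.2e-05) and Cdkn1a by 1.70 ± 0.31 (adjusted p = 0.00031). Cdkn2d rose by 0.52 ± 0.17 (adjusted p = 0.02) and Cdkn1b by 0.32 ± 0.12 (adjusted p = 0.036), and both of these calls were lost without preparation 5 or 8 (adjusted p = 0.12 to 0.36), that of Cdkn1b also without the filter on low counts (adjusted p = 0.11). The median of the 6 genes was 1.11, beside -0.07 over all genes.

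In the other gates fewer genes were called. In G1-S cells 2 of 6 were called (39.7% of all genes): Cdkn1c rose by 2.04 ± 0.14 (log2, adjusted p = 1.1e-08) and Cdkn2c by 1.48 ± 0.34 (adjusted p = 0.0021), a call lost for Cdkn2c without preparation 5 or 8 (adjusted p = 0.052 and 0.089). In G1 cells 3 were called (47.1% of all genes), with Cdkn1c higher by 1.34 ± 0.13 (adjusted p = 8e-07), Cdkn2d lower by 1.07 ± 0.18 (adjusted p = 0.00017) and Cdkn2b lower by 1.73 ± 0.56 (adjusted p = 0.018). The call for Cdkn2b was lost without preparation 5 or 8 (adjusted p = 0.064 and 0.14). In G0 cells 2 were called (42.9% of all genes), Cdkn1c higher by 0.91 ± 0.13 (adjusted p = 3.55e-05) and Cdkn2d lower by 1.15 ± 0.17 (adjusted p = 4.8e-05). Cdkn1c was the one gene of the 6 called in every gate. Cdkn2d was lower at E13.5 in G0 and G1 and higher in S-G2-M.

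**Figure D5:**
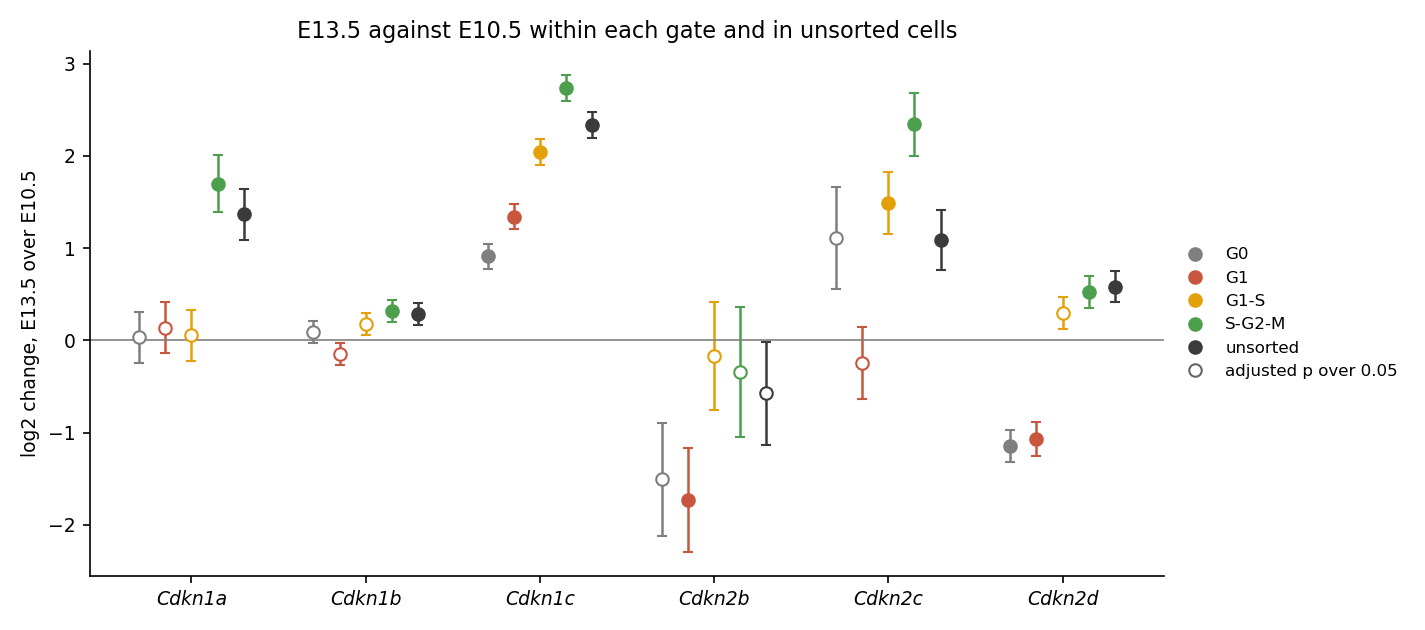
Log2 change of each gene at E13.5 over E10.5 within each gate and in unsorted cells (2 preparations a day), with SE bars. Filled points passed an adjusted p of 0.05. For Cdkn1c the changes lie between 0.91 in G0 and 2.74 in S-G2-M, while Cdkn2d lies below 0 in G0 and G1 and above 0 in the other fractions.

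Several cell type lists and a stress list moved with the day in S-G2-M cells, where 43.0% of all genes were called in either direction. Of 10 cartilage genes (Col2a1, Acan, Sox9 and others) 9 were higher at E13.5 than at E10.5 and none lower, and their summed level was 3688 to 3717 CPM at E13.5 and 910 to 1003 CPM in the WT-titled libraries, in which at most 1 of them was at 0. Of 20 genes that respond to tissue dissociation (Fos, Jun, Egr1 and others) 14 were higher and 1 lower, with summed levels of 2021 to 2480 CPM and 1129 to 1443 CPM in the same order. Of 15 neuronal genes 10 were higher and 1 lower, with 517 to 628 CPM and 262 to 314 CPM. In G0 cells 8 of the neuronal genes were lower at E13.5 and 2 higher, where 42.9% of all genes were called in either direction. The neuronal genes summed there to 5657 to 5907 CPM at E13.5 and 8616 to 10067 CPM in the WT-titled libraries. The part of these lists in the day differences of the CDK inhibitors was not tested.

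The level in unsorted cells lay outside the range of the gates for some of the genes. At E13.5 Cdkn1a had 6.62 and 9.54 CPM in unsorted cells of preparations 5 and 8, above all 4 gates of the same preparation, and at the earlier days 3.07, 3.20 and 2.42 CPM, within the range of the gates. Cdkn2c had 19.0 and 21.3 CPM in unsorted cells of preparations 5 and 8, within the gates, and 11.5, 7.57 and 9.73 CPM in those of WT1, WT2 and WT3, above all 4 gates of each. Cdkn2d had 27.0 and 24.9 CPM in unsorted cells of preparations 5 and 8, above all 4 gates of each, and lay within the gates at the earlier days. For Cdkn1b, Cdkn1c and Cdkn2b the unsorted level was within the gates in 4 of 5 preparations. Unsorted cells at E13.5 against E10.5 gave 5 higher genes of 6 (53.8% of all genes were called in either direction). Cdkn1c rose by 2.33 ± 0.14 (log2, adjusted p = 1.9e-09), Cdkn1a by 1.37 ± 0.28 (adjusted p = 0.00065), Cdkn2c by 1.09 ± 0.33 (adjusted p = 0.0099), Cdkn2d by 0.58 ± 0.17 (adjusted p = 0.0081) and Cdkn1b by 0.29 ± 0.12 (adjusted p = 0.048). Without preparation 8 only Cdkn1c was called, and without 5 only Cdkn1a and Cdkn1c. The call for Cdkn1b was also lost without WT1 (adjusted p = 0.074) and under 4 other settings (adjusted p = 0.17 to 0.23). The 10 erythroid genes, which mark red blood cells, summed to 11912 to 42977 CPM in unsorted cells and to 61.7 to 3246 CPM in the gates, and their part in the unsorted levels was not tested.

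Genes with the pattern most like each CDK inhibitor over the gates were sought among 10364 genes, by Pearson's r of log2 CPM over 20 sorted libraries after the mean of each preparation was removed. For Cdkn2c they were Stil (r = 0.979), Kntc1 (0.977) and Fanca (0.974). For Cdkn1a they were Acer2 (0.940), Ccdc141 (0.930) and Sema3g (0.929), and for Cdkn1c Tpd52 (0.942), Olfml2b (0.927) and Capn1 (0.922). For Cdkn2d they were Sun2 (0.942), Jpt1 (0.924) and Tbc1d10b (0.908), and for Cdkn1b Tmem138 (0.934), Mtmr14 (0.933) and Zbtb22 (0.922). The values for Cdkn2b were lower, 0.829 for Zfpm1, 0.790 for Tpd52 and 0.788 for Stxbp2. Among the 15 pairs of the 6 genes r ran from -0.60 for Cdkn1a and Cdkn1b to 0.86 for Cdkn1a and Cdkn1c, with 0.74 for Cdkn1c and Cdkn2b and 0.72 for Cdkn1b and Cdkn2d. The 20 libraries share 5 preparations and the gates, so these values only describe likeness of pattern.

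A list of cyclins and kinases of G1 and S phase, which the inhibitors bind or act upon, had 10 genes. All 10 were higher in G1 than in G0 (36.3% of all genes called in either direction). All 10 were also higher in S-G2-M than in G0 (54.2%). In G1 against G0 the changes ran from 0.40 ± 0.12 for Cdk4, the kinase that INK4 proteins bind, to 1.75 ± 0.17 for Ccnd1, which encodes cyclin D1. In S-G2-M against G0 they ran from 0.80 ± 0.12 for Cdk4 to 5.10 ± 0.26 for Ccna2, which encodes cyclin A2. The median log2 change of the 10 was 1.66 in S-G2-M against G0, beside -0.01 over all genes.

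Of 11 pocket protein and E2F genes 8 rose in G1 against G0 and none fell (36.3% of all genes called), with 0.45 ± 0.10 for E2f4, a repressor E2F, and 1.88 ± 0.26 for E2f8, an atypical repressor. In S-G2-M against G0 9 rose and 1 fell, with 3.53 ± 0.26 for E2f8, and the one that fell was Rb1, the retinoblastoma gene, by 0.85 ± 0.18. Of 15 genes of ubiquitin ligases that act on CIP/KIP proteins and their partners, 12 rose and 2 fell in S-G2-M against G0 (54.2% of all genes called). Cdc20, an activator of the anaphase-promoting complex, rose by 4.82 ± 0.34, and Rnf123, part of a ligase for p27, fell by 0.59 ± 0.17. Between G1 and G0 5 of these rose in G1 and 1 fell, with 1.63 ± 0.19 for Dtl, which targets p21 at replicating DNA, and -0.42 ± 0.10 for Fbxw7, which targets cyclin E.

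Other targets of p53, the factor that acts on Cdkn1a, did not share one direction. Of 21 tested of 22, 7 rose and 6 fell in S-G2-M against G0, where 54.2% of all genes were called, with a median of 0.03. Trp53inp1, a p53-induced stress gene, fell by 2.31 ± 0.14 and Ckap2, a spindle protein gene, rose by 3.40 ± 0.29. Of the same genes 6 rose and 4 fell in G1 against G0, where 36.3% of all genes were called, with Fas, the death receptor, at 1.31 ± 0.44 and Bbc3, which encodes PUMA, at -1.002 ± 0.24. In unsorted cells at E13.5 against E10.5 11 rose and 2 fell, where 53.8% of all genes were called, with a median of 0.46 beside -0.08 over all genes. The part of p53 in the changes of Cdkn1a was not tested.

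Of 15 Polycomb genes, whose products repress the INK4 locus, 6 rose and 3 fell in S-G2-M against G0, a share near the 54.2% of all genes called there. Eed, a core subunit of Polycomb repressive complexes that methylate histones, rose by 1.21 ± 0.14. Of the Polycomb genes 2 rose and 2 fell in G1 against G0, where 36.3% of all genes were called, with Cbx2, a chromodomain subunit, at 0.39 ± 0.10. Around Cdkn1c on chromosome 7, 8 of 9 neighbouring genes of its imprinted region were tested, and 3 rose and 3 fell in S-G2-M against G0 (54.2% of all genes called). Kcnq1, a potassium channel gene, fell by 1.26 ± 0.42 and Nap1l4, a histone chaperone gene, rose by 0.60 ± 0.09. In G1 against G0 only Cd81, a tetraspanin gene, was called, at 0.48 ± 0.12. Of the same 8 in S-G2-M cells, 3 rose and 1 fell at E13.5 against E10.5, where 43.0% of all genes were called in either direction. The log2 change was 2.68 for Phlda2, a growth-restricting imprinted gene, and -0.64 for Nap1l4.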

How the data were processed

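Gene counts were deposited by the authors as 1 table with a column for each sequencing lane. Libraries came from rRNA-depleted RNA of sorted cells, per the labels' protocols, and STAR 2.5.3, HTSeq 0.8.0 and mm10 are named per the submitters' processing notes. No annotation or strand setting is named there. Here 130 lane columns were summed to 25 libraries. A filterByExpr filter (at least 10 counts, 15 in total) was followed by TMM scaling and robust quasi-likelihood tests in edgeR 4.0.16 (limma 3.58.1, R 4.3.3). The model held gate and day over all 25 libraries, or a mean for each gate and day for within-day values. Adjusted p-values are Benjamini-Hochberg over 23506 genes, called at 0.05. CPM used TMM-adjusted totals, and kilobases are exon lengths of GENCODE M21 on GRCm38. Replicates are preparations, whose independence the labels do not state, so p-values may measure technical spread. Preparation prefixes recur across gates, and same-numbered libraries deviated together (r = 0.119 to 0.743 for WT1 and WT2, 0.316 to 0.663 for 5 and 8, but -0.143 to 0.503 for 5 and 8 once sex-linked genes were left out), so a fit with preparation as a block was run beside this one. Other alternatives were RLE factors, no filter, 2 abundant genes left out, single preparations left out, preparation subsets and DESeq2 1.42.0. For within-day differences these were chosen after seeing the data. The members, lists and named genes (lowest and highest called change of each list) were chosen with earlier results of these data known. One gene that this rule names is not reported here.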

Additional observations from a re-analysis of the deposited data

Results flagged for a closer look

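Cdkn2b in G0 had 1 preparation far below the others: preparation 5, with 2 counts, had on the log2 CPM scale a gap to the next library of 0.718 of the whole range of the 5. It was the one such case among 30 groups of 5 libraries, and chance gives about 1 in 20.

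The change between gates differed between E13.5 and E10.5, by a test of the difference itself, in 5 of 24 tests. In S-G2-M against G0 the log2 change was higher at E13.5 by 1.83 for Cdkn1c, by 1.67 for Cdkn1a and by 1.67 for Cdkn2d. In G1-S against G1 it was higher at E13.5 by 1.37 for Cdkn2d and by 0.70 for Cdkn1c, of which the second lost its call without Gm26917 and Gm42418 (0.64, adjusted p = 0.069). Embryonic day cannot be told apart from the naming of the preparations or from the share of mitochondrial counts, which was 1.66% to 3.42% in preparations 5 and 8 and 0.372% to 0.701% in the WT-titled ones.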

How the results depend on the processing

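Of 1530 values of 162 single-gene results under the alternatives, 1369 kept their side of the threshold, 99 lost the call, 58 gained one and 4 reversed. Values called in neither fit count among the 1369, also where their direction changed. The 4 reversals came with preparations 5 and 8 alone: Cdkn1c at 0.64 in G1-S against G0 and 0.17 in S-G2-M against G0, and Cdkn2d at 0.11 and 0.77 in the same comparisons. With the replicate block the calls for the day differences were 8 of 24 in place of 5. The calls for G1-S against G1 over all days were 1 in place of 2 with this block. Its other counts of calls stayed within 1.5 times. The day differences also gave 8 without the low-count filter and 8 with DESeq2, and 1 to 11 with single preparations left out. G1-S against G1 gave 1 call with RLE factors, without Gm26917 and Gm42418, and in the WT-titled preparations. With single preparations left out it gave 1 to 2, G1-S against G0 1 to 2, S-G2-M against G1-S 2 to 4, and E13.5 against E10.5 gave 1 to 4 in G1-S, 3 to 5 in S-G2-M and 1 to 5 in unsorted cells. The cause was not tested, except that leaving out a preparation of E10.5 or E13.5 leaves 1 library of that day a gate, assumed to vary like the others. DESeq2 gave a median of all genes in S-G2-M against G0 of -0.14 over 30386 genes, beside -0.01 over the 23506 of the main fit. RLE factors gave -0.07 over 23506 genes. Cdkn2a and Cdkn2b are limited by depth, with 0 to 7 and 2 to 40 counts a library.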
